A study of Mus musculus with 18 samples.

Results

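The circadian clock genes Arntl, Clock, Per1, Per2, Per3, Cry1, Dbp, Tef, Nr1d1 and Nr1d2 were read in mouse colon tissue and in tumor organoids, and are described here across every library. The genes were chosen by symbol, so the set is 10 of the 36757 genes in the count table, and all 10 passed the filter on low counts in each fit. RNA was sequenced from 18 libraries, 3 in each of 6 groups. The question was whether clock genes stood at different levels, or at different points of their daily cycle, in the groups when the tissue was taken.

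All mice were C57BL/6 and between 6 and 8 weeks old when treatment began, and each model had mice labelled wild type (RNF138 fl/fl in the protocol) and RNF138-/-. RNF138 is a RING-type ubiquitin ligase. Colitis groups drank 2% dextran sulfate sodium (DSS), which injures the colon epithelium, for 7 days and then water for 14 days, in repeated cycles, and had no azoxymethane. Mice of the colitis-associated cancer groups (CAC) received the carcinogen azoxymethane (AOM) at 10 mg/kg before DSS cycles of the same kind. Organoids were grown in matrigel from tumors of the CAC model, so both of their groups come from mice treated with AOM and DSS. Colitis mice were killed some weeks after the last cycle, and the protocols used here give neither a time of day, a light schedule nor an hour of organoid harvest. The labels do not say that the 3 libraries of a group are separate animals or cultures, so p-values measure the spread between these libraries, which may be technical. How the RNF138-/- allele was made, and in which cells it is deleted, is not given in the sources used here.

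The clock is a loop of transcription and repression that runs through about a day in nearly every cell, the colon epithelium included. BMAL1, the product of Arntl, pairs with CLOCK and binds E-boxes to switch on the Per and Cry genes, whose proteins return to block that pair, while REV-ERBα and REV-ERBβ (Nr1d1 and Nr1d2) are switched on by the same pair and repress Arntl through RORE sites. Dbp and Tef encode PAR bZIP factors that act on D-boxes of output genes and of Per genes, and in most tissues Dbp, Nr1d1 and the Per genes peak when Arntl is near its trough.

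Promoter sequences of RefSeq (GRCm38.p6, the build of the files) were searched for these 3 kinds of site because they are where the members act on each other. A window held 250 bases before and 50 bases after a start site, and 9 of the 10 members matched, with 14 windows; Per2 had none. Both strands were searched for the E-box CACGTG, which reads the same on both, the D-box TTATGTAA and the RORE, spelled A, N, N, T, N and then GGTCA with N for any base. An E-box stood in windows of Per1, Cry1 and Tef, and in 7.15% of all 32851 windows. A D-box stood at 2 places in the Per3 window, against 0.938% of all windows with at least 1. A RORE stood in Arntl, against 2.46% of all windows. The stretches below carry these matches, written 5′ to 3′ on the strand of the gene, with the motif in capitals.
Arntl, RORE, chr7:113207528-113207557, plus strand: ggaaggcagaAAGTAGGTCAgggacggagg
Cry1, E-box, chr10:85185097-85185126, minus strand: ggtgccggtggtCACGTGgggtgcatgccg
Per1, E-box, chr11:69098771-69098800, plus strand: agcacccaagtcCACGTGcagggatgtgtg
Per3, D-box, chr4:151044804-151044882, minus strand: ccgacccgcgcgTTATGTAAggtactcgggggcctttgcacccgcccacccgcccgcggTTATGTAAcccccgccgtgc
Tef, E-box, chr15:81802534-81802563, plus strand: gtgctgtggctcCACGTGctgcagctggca
Tef, E-box, chr15:81811264-81811293, plus strand: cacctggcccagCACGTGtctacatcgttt
The Cry1 match began 60 bases before the start and lies upstream of the annotated gene, as do both Per3 matches, which began 205 and 158 bases before it. The Per1 match began 166 bases before its RefSeq start, in an intron of a longer annotated transcript. Tef had 1 match in each of 2 windows, 127 and 138 bases before the respective starts, which the GENCODE M21 annotation places in an exon and in an intron of longer transcripts. The Arntl match began 27 bases after a start and lies in an exon. These matches describe letters only.

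Total counts per library were between 11514716 and 24390082, and a member had between 48 and 4556 counts in a library. Values are CPM, counts scaled to the library size, here with TMM factors over all 18 libraries. Where groups are said to overlap or not, this only describes the values, since the share of all genes without overlap was not taken. Rnf138 itself goes against the genotype labels, so genotype names give the labels only, and which exons were deleted is not given. It had 18.8 ± 0.760 CPM (SD, n = 3) in colitis libraries labelled RNF138-/- against 19.6 ± 4.95 in wild type, 43.6 ± 3.41 against 25.5 ± 3.43 in CAC and 47.0 ± 3.81 against 49.0 ± 9.79 in the organoids. Y-linked genes were read in all 12 colon libraries and in the 3 organoid libraries labelled RNF138-/-, and had 0 counts in the 3 wild type organoid libraries, where Xist had between 4924 and 6881 counts, so genotype and sex of the source cannot be told apart in the organoids. Epithelial markers (8 of 8 genes) were read in every group, with a summed level between 5472 and 16210 CPM. In bulk samples, fewer cells of a type and less RNA per cell cannot be told apart.

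Per kilobase of exon sequence, the leading members of the colitis groups were not those of the other groups. In wild type colitis tissue Cry1 (14.7 CPM per kb) and Per2 (14.4) were the highest and Nr1d1 (1.70) and Dbp (1.98) the lowest, and in colitis labelled RNF138-/- Cry1 (13.7) and Per2 (10.2) also led. In wild type CAC tissue Nr1d2 (15.9) and Nr1d1 (14.2) led and Per3 (3.36) was lowest, whereas in CAC labelled RNF138-/- Nr1d2 (16.7) and Clock (10.4) led and Arntl (1.68) was lowest. The same 2 genes as in wild type CAC, Nr1d1 (28.8) and Nr1d2 (21.3), led in wild type organoids, and Nr1d1 (45.1) and Per1 (41.5) in those labelled RNF138-/-, with Per3 lowest in both (1.94 and 2.59). On the CPM scale, Nr1d1 ran from a mean of 5.24 in wild type colitis tissue to 138.6 in organoids labelled RNF138-/-. Its order from the lowest was wild type colitis, RNF138-/- colitis, RNF138-/- CAC, wild type CAC, wild type organoids and RNF138-/- organoids, and of these neighbours only the colitis and CAC groups labelled RNF138-/- had overlapping ranges. For Per2, Per3 and Arntl, every pair of neighbouring groups overlapped.

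**Figure D1:**
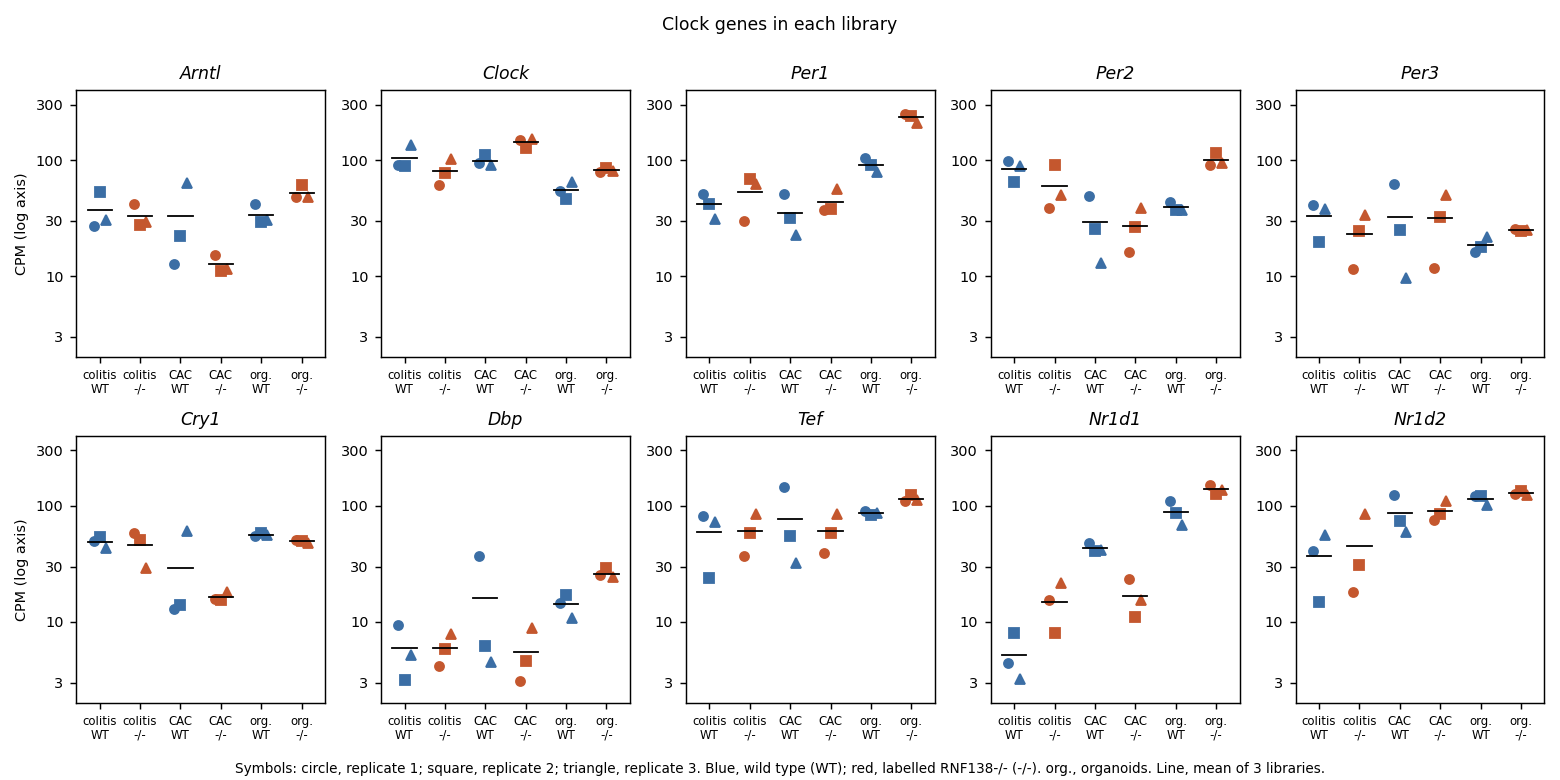
CPM of each clock gene in each of the 18 libraries, on a log axis, with the mean of the 3 libraries of a group as a line. Nr1d1 climbs from 5.24 CPM in wild type colitis tissue to 138.6 in organoids labelled RNF138-/-, while replicates of Arntl, Cry1 and Dbp lie far apart in wild type CAC tissue.

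In colitis tissue no clock gene was called between genotypes with the main settings. The background was 0.018% of 16623 genes called higher and 0.0722% called lower, a gene being called where its p, adjusted over every gene tested, was under 0.05. The member with the largest difference was Nr1d1, at 4.47, 8.03 and 3.22 CPM in wild type libraries 1, 2 and 3 and 15.5, 8.04 and 21.5 CPM in those labelled RNF138-/-. The groups did not overlap, but the lowest of the second (8.04) was level with the highest of the first (8.03). Its log2 fold change was 1.52 (SE 0.45, edgeR, adjusted p = 0.283), and the exact permutation test gave p = 0.1, the smallest that 3 libraries against 3 allow. By DESeq2, which called 2.62% of all genes in either direction, it passed (adjusted p = 0.0338), as it did in edgeR with no filter on low counts (adjusted p = 0.0361; 1.13% of genes). The other 9 members had log2 fold changes between −0.51 (Per3, SE 0.42) and 0.37 (Per1, SE 0.33), and their ranges overlapped. The members' median was −0.04, beside 0.02 over all genes tested. At an unadjusted p under 0.05, edgeR had 1 member. No cell type marker was called, but 7 of 7 T cell markers (median log2 fold change 1.13) and 8 of 8 for enteric neurons and glia (0.49) were positive, as were 6 of 7 for B and plasma cells (0.96), and 5, 2 and 4 of these had an unadjusted p under 0.05 by edgeR. Smooth muscle (7 of 8) and endothelial markers (5 of 6) were mostly positive and myeloid markers mostly negative (5 of 6 tested). Of 7 differentiated colonocyte markers 4 were positive, and 3 of the 7 had such a p. No share over all genes was taken at an unadjusted p. Summed T cell markers were between 22.4 and 23.9 CPM in wild type and between 40.7 and 53.8 CPM in the libraries labelled RNF138-/-, and their part in the Nr1d1 values was not tested.

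In CAC tissue Nr1d1 was the only member called between genotypes, and it was lower in the libraries labelled RNF138-/-. Of 17752 genes, 1.05% were called higher and 5.33% lower. Nr1d1 had 47.9, 41.1 and 41.8 CPM in wild type and 23.3, 11.1 and 15.5 CPM in the libraries labelled RNF138-/-, so the groups did not overlap. It differed by a log2 fold change of −1.44 with SE 0.28 (edgeR, adjusted p = 0.0399), which is opposite in sign to its value in colitis. This call was lost without any 1 of 5 of the 6 libraries. The adjusted p was 0.0799 without wild type 1, 0.0564 without wild type 2, and 0.0839, 0.138 and 0.11 without libraries 1, 2 and 3 labelled RNF138-/-, with log2 fold changes between −1.76 and −1.20. Those fits called from 0% to 3.88% of all genes in either direction, against 6.38% with all libraries. Thra, which overlaps Nr1d1 on the opposite strand, had a log2 difference of −0.24 (SE 0.14, edgeR, adjusted p = 0.278), and 7.27% of the 50-base windows of Nr1d1 occur in Thra. The files do not state that strand was used in counting, so reads of such a pair cannot be told apart.

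Replicates of wild type CAC tissue lay far apart in several members. Arntl had 12.7, 22.2 and 63.6 CPM in wild type libraries and 15.2, 11.1 and 11.6 CPM in those labelled RNF138-/-, a log2 difference of −1.44 (SE 0.58, edgeR, adjusted p = 0.138), or −0.50 (adjusted p = 0.291) without wild type library 3. Cry1, a repressor of the BMAL1 and CLOCK pair, had 12.9, 13.9 and 60.2 CPM in wild type and 15.6, 15.6 and 17.97 CPM in the other group. Both genes were higher in wild type library 3 than in every other CAC library. Dbp was high in another library, with 37.2, 6.21 and 4.55 CPM in wild type and 3.08, 4.62 and 8.83 CPM in the libraries labelled RNF138-/-, a log2 difference of −1.58 (SE 0.85, edgeR, adjusted p = 0.230), or −0.0340 (adjusted p = 0.968) without wild type library 1. Clock had 94.2, 111.6 and 91.5 CPM in wild type and 149.5, 126.1 and 152.6 CPM in the other group, without overlap (log2 fold change 0.47, SE 0.15, edgeR, adjusted p = 0.0843). By DESeq2 Clock passed (adjusted p = 0.0316; 22.7% of all genes called), and in a fit of all 18 libraries Arntl passed (adjusted p = 0.0293; 23.5% of all genes called). Per1, Per2, Per3, Tef and Nr1d2 had log2 fold changes between −0.40 and 0.28. The median of the members was −0.28, beside 0.01 over all genes tested.

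Tissue makeup moved with these CAC values. In the CAC libraries labelled RNF138-/-, 8 of 8 smooth muscle, 7 of 7 B and plasma cell and 4 of 4 tested fat markers were called lower than in wild type, as were 3 of 7 differentiated colonocyte and 3 of 8 enteric neuron and glia markers. Epithelial markers were negative in 8 of 8 (median log2 fold change −0.89), with 1 called lower. Myeloid markers went the other way, positive in 8 of 8 (median 0.74), with none called. Summed smooth muscle markers were between 2617 and 8824 CPM in wild type and between 122.7 and 255.3 in the other group. Differentiated colonocyte markers summed to 2118, 2174 and 12600 CPM in wild type libraries 1, 2 and 3, so library 3, which was high in Arntl and Cry1, was also high in these, and to between 351.4 and 608.1 CPM in the libraries labelled RNF138-/-. Their part in the clock gene values was not tested.

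In organoids 7 of the 10 members were higher in the libraries labelled RNF138-/- and none passed in the other direction. The background was 17.9% of 15294 genes called higher and 17.7% lower. Among the activators, Arntl had 41.8, 29.4 and 30.6 CPM in wild type and 47.7, 61.1 and 47.9 CPM in the other group (log2 fold change 0.59, SE 0.17, edgeR, adjusted p = 0.0283). Clock rose from 53.6, 46.3 and 65.0 CPM to 79.3, 85.4 and 80.5 CPM (0.54, SE 0.13, edgeR, adjusted p = 0.0164). Neither gene overlapped between the groups.

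The largest differences in organoids were those of 2 Period genes, the repressors of the loop. Per1, which also responds acutely to glucocorticoids, had 103.5, 91.0 and 78.7 CPM in wild type and 250.1, 241.2 and 209.3 CPM in the libraries labelled RNF138-/-, a log2 difference of 1.32 (SE 0.13, edgeR, adjusted p = 0.00107). Per2 had 43.1, 37.3 and 36.9 CPM against 91.0, 114.6 and 93.9 CPM, a log2 difference of 1.31 (SE 0.13, edgeR, adjusted p = 9.66e-04). These were the 2 members that also passed a fold change of at least 2, and the share of all genes passing that rule was not taken. Per3 had a log2 difference of 0.38 (SE 0.14, edgeR, adjusted p = 0.0695) and Cry1 of −0.22 (SE 0.10, edgeR, adjusted p = 0.103).

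Of the PAR bZIP and REV-ERB genes, Dbp, Tef and Nr1d1 rose in these organoids. Dbp had 14.5, 17.2 and 10.9 CPM in wild type and 25.3, 28.9 and 24.2 CPM in the libraries labelled RNF138-/- (log2 fold change 0.84, SE 0.19, edgeR, adjusted p = 0.0112). Tef ranged from 83.9 to 90.9 CPM in wild type and from 110.2 to 123.6 CPM in the other group (0.37, SE 0.09, edgeR, adjusted p = 0.0185). Nr1d1 had 110.3, 87.2 and 67.9 CPM against 151.6, 127.2 and 137.0 CPM (0.61, SE 0.17, edgeR, adjusted p = 0.0266), and Nr1d2 differed by 0.11 (SE 0.11, edgeR, adjusted p = 0.433). The groups did not overlap for Dbp, Tef or Nr1d1, a description with no share over all genes beside it. The members' median was 0.56, beside −0.04 over all genes tested. Sphk2, which shares 16.2% of the 50-base windows of Dbp on the opposite strand, had a log2 fold change of −0.23, and Thra of 0.27, neither past the threshold.

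Per1, Per2 and Dbp kept their call without each of the 6 organoid libraries. The other 4 calls were lost in some of these fits, in which fewer genes were called over the whole table as well (17.2% to 30.1% in either direction, 35.5% with all libraries). The log2 fold changes in those fits were 0.47 to 0.66 for Arntl, 0.55 to 0.68 for Nr1d1, 0.51 and 0.55 for Clock and 0.33 and 0.39 for Tef, near those with all libraries. Arntl was lost without any 1 of 5 libraries, wild type 1 excepted, with adjusted p between 0.0518 and 0.106. Nr1d1 was lost without wild type 2 (adjusted p = 0.0725) or without library 1, 2 or 3 labelled RNF138-/- (0.0873, 0.0564 and 0.0753). Clock and Tef were lost without library 2 (0.0622 and 0.0807) or library 3 (0.0529 and 0.064) labelled RNF138-/-, and Per3 passed without wild type 3 (0.0289). A fit of all 18 libraries, which shares the spread of colon tissue, called 2 members, Per1 and Per2, and 16.8% of all genes, and the replicate number as a block left 5 members and 26.4% of all genes.

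Markers of mesenchymal and myeloid cells moved with the organoid values. Of the fibroblast markers 6 of 7 were called higher in organoids labelled RNF138-/-, and their sum was between 9103 and 23240 CPM in wild type and between 40430 and 49700 CPM in the other group. Of the smooth muscle markers 3 of 8 were called higher, and of the epithelial markers 4 of 8 lower. Of 7 tested myeloid markers 3 were called higher and 1 lower, and their sum was between 50.6 and 70.7 CPM in wild type and between 138.1 and 191.8 CPM in the other group. Of the glucocorticoid target genes 2 of 6 were called higher, Per1, itself a clock member, and Fkbp5 (log2 fold change 1.53, SE 0.20, edgeR, adjusted p = 0.00211). None of the 6 was called between genotypes in colitis or CAC. In CAC against colitis 1 was lower in wild type and 4 in RNF138-/- (7.55% and 26.7% of all genes lower). In organoids against CAC 3 were higher and 3 lower in wild type (27% and 33.7% of all genes), and 4 higher in RNF138-/- (25.7%). The part of these cells, of sex and of hormone response in the clock gene values was not tested.

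**Figure D2:**
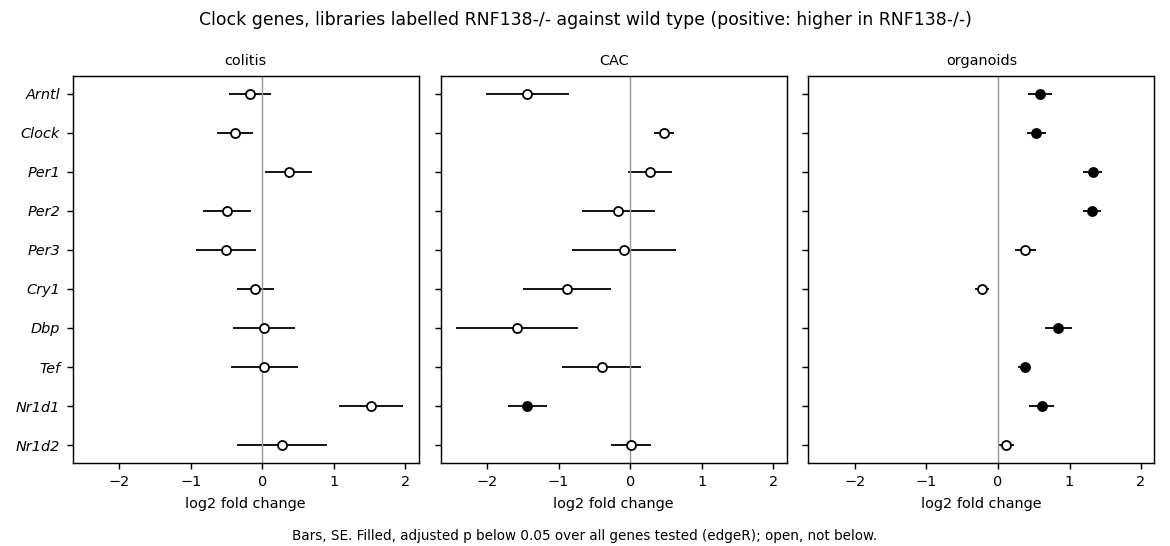
Log2 fold change of each clock gene in libraries labelled RNF138-/- against wild type, with its SE as a bar, in colitis tissue, CAC tissue and organoids. Filled points passed an adjusted p of 0.05 (edgeR), which holds for 0, 1 and 7 of the 10 genes, and bars are shortest in the organoids.

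The genotype differences were then compared between models in a fit of all 18 libraries. Between CAC and colitis, 14.1% of 19390 genes differed in their genotype effect in either direction, and 2 members did. Nr1d1 did so by −2.90 (SE 0.50, edgeR, adjusted p = 0.00249), since it stood higher in colitis and lower in CAC libraries labelled RNF138-/-. Clock did so by 0.91 (SE 0.28, edgeR, adjusted p = 0.0398), a call that was lost under RLE normalization (0.86, adjusted p = 0.0523) and without any 1 of 9 libraries (wild type colitis 1 and 3, RNF138-/- colitis 1 and 2, wild type CAC 1 and 3 and each of the 3 labelled RNF138-/- in CAC), the values without them running from 0.63 to 0.99 with adjusted p from 0.0525 to 0.142. The other 8 members lay between −1.56 (Dbp, SE 0.88) and 0.47 (Per3, SE 0.78). Between organoids and CAC the background was 23.3%, and Arntl (1.99, SE 0.59, edgeR, adjusted p = 0.0243) and Nr1d1 (2.04, SE 0.48, edgeR, adjusted p = 0.00710) differed. For Arntl the value was 1.10 without wild type CAC library 3 (adjusted p = 0.0699), and the call was lost without any 1 of 5 other libraries (RNF138-/- CAC 2 and 3, wild type organoids 2 and 3 and RNF138-/- organoids 2), at 1.87 to 1.95 (adjusted p from 0.0501 to 0.0603). Dbp had the largest estimate at 2.42 (SE 0.87, edgeR, adjusted p = 0.0546) and passed by DESeq2 (adjusted p = 0.0182), but it was 0.88 (adjusted p = 0.310) without wild type CAC library 1. The remaining 7 lay between 0.05 (Clock, SE 0.28) and 1.47 (Per2, SE 0.56). Sex markers (5 of 5), smooth muscle (8 of 8), differentiated colonocyte (6 of 7) and fibroblast (4 of 7) markers were called in the test between organoids and CAC, and smooth muscle (8 of 8), B and plasma cell (7 of 7), enteric neuron and glia (7 of 8), differentiated colonocyte (6 of 7) and fat (5 of 5 tested) markers in that between CAC and colitis. Sex of the source and genotype cannot be told apart in the first of these, and the part of the cell types was not tested.

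Between the colon tissues, CAC differed from colitis in 2 of 10 members in wild type, where 19.8% of all genes were called. It differed in 4 of 10 in the libraries labelled RNF138-/-, where 54.7% of all genes were called. The first count is near the share of all genes and the second below it, and Per2 was called in both. In wild type, with 12.3% of 19390 genes called higher in CAC and 7.55% lower, 1 member was called in each direction. Nr1d1, the REV-ERBα gene, stood at 4.47, 8.03 and 3.22 CPM in colitis and at 47.9, 41.1 and 41.8 CPM in CAC, a log2 difference of 3.05 (SE 0.37, edgeR, adjusted p = 5.52e-05). Per2 went from 98.7, 64.3 and 89.5 CPM in colitis to 49.4, 25.6 and 13.0 CPM in CAC (−1.52, SE 0.40, edgeR, adjusted p = 0.0155), without overlap. The Per2 call was lost without wild type colitis library 1 (−1.42, adjusted p = 0.0527) and in a fit of those 6 libraries alone (adjusted p = 0.0672). Nr1d2, the other REV-ERB gene, had 40.9, 14.8 and 55.9 CPM in colitis and 123.9, 74.6 and 60.03 CPM in CAC (1.21, SE 0.48, edgeR, adjusted p = 0.0825), and it passed without wild type colitis library 3 (1.61, adjusted p = 0.0498). Clock (−0.07), Per1 (−0.25), Per3 (−0.02) and Tef (0.39) had overlapping ranges and adjusted p between 0.601 and 0.985 (edgeR). Thra had a log2 difference of −0.40 (SE 0.17, edgeR, adjusted p = 0.109), the opposite sign to Nr1d1. Of the cell type markers, 3 of 5 tested for fat and 2 of 7 for B and plasma cells were called higher in CAC, 2 of 8 myeloid markers higher and 1 lower, and 1 of 8 for enteric neurons and glia lower. Summed fat markers were between 23.4 and 36.7 CPM in colitis and between 62.1 and 142.3 CPM in CAC. Their part in the clock gene values was not tested.

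The count of members called between the wild type tissues was 2 with all libraries, 1 to 3 without a single colitis library and 2 to 5 without a single CAC library. Without library 3, where 13.5% of all genes were called higher and 8.39% lower, 5 members were called, with Arntl at −1.07 (adjusted p = 0.0223), Cry1 at −1.87 (adjusted p = 2.93e-05) and Dbp at 1.87 (adjusted p = 0.0306) beside Per2 and Nr1d1. With all libraries, Arntl was −0.18 (SE 0.42), Cry1 −0.77 (SE 0.42) and Dbp 1.44 (SE 0.62, edgeR, adjusted p = 0.116). Without library 1, Dbp was −0.16 (adjusted p = 0.861).

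In the libraries labelled RNF138-/-, CAC differed from colitis in 4 members, with 27.9% of genes called higher and 26.7% lower. Arntl had 41.9, 27.8 and 29.2 CPM in colitis and 15.2, 11.1 and 11.6 CPM in CAC (−1.38, SE 0.42, edgeR, adjusted p = 0.0117). Cry1 had 57.9, 50.5 and 29.3 CPM in colitis and 15.6, 15.6 and 17.97 CPM in CAC (−1.48, SE 0.42, edgeR, adjusted p = 0.00757). Per2 had 38.5, 91.1 and 49.9 CPM in colitis and 16.2, 26.7 and 38.3 CPM in CAC (−1.14, SE 0.40, edgeR, adjusted p = 0.0241). Those 3 fell without overlap, while Clock rose from 61.3, 77.3 and 101.1 CPM to 149.5, 126.1 and 152.6 CPM (0.84, SE 0.20, edgeR, adjusted p = 0.00219). Nr1d1, the gene with the largest difference between the wild type tissues, differed here by 0.15 (SE 0.34, edgeR, adjusted p = 0.736). The Per2 call was lost without colitis library 2 (−0.80, adjusted p = 0.118) or CAC library 1 (−0.88, adjusted p = 0.103) or 2 (−1.13, adjusted p = 0.0622) of this genotype, and Nr1d2 (1.01, SE 0.47, edgeR, adjusted p = 0.0808) passed without colitis library 3 (1.82, adjusted p = 0.00271). Per1 (−0.29), Per3 (0.45), Dbp (−0.12) and Tef (0.01) had overlapping ranges and adjusted p between 0.433 and 0.988 (edgeR). Smooth muscle (8 of 8), fat (5 of 5 tested), B and plasma cell (7 of 7), enteric neuron and glia (7 of 8) and differentiated colonocyte (6 of 7) markers were called lower in this comparison. Myeloid markers were called higher (5 of 8), and the fat and B cell markers moved opposite to those called between the wild type tissues.

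In both genotypes Per1 and Nr1d1 were called higher and Clock lower in organoids than in CAC tissue. In wild type, with 27% of genes called higher and 33.7% lower, Per1 (1.38, SE 0.31, edgeR, adjusted p = 0.00126) and Nr1d1 (1.02, SE 0.34, edgeR, adjusted p = 0.0161) were higher and Clock lower (−0.85, SE 0.20, edgeR, adjusted p = 0.00165). The other 7 members lay between −0.80 (Per3, SE 0.56) and 0.97 (Cry1, SE 0.42), with Tef at 0.17 and Nr1d2 at 0.42, and had overlapping ranges. The Nr1d1 call was lost without wild type organoid library 1 (0.83, adjusted p = 0.0702). Without wild type CAC library 3, Arntl (0.95, adjusted p = 0.0168) and Cry1 (2.07, adjusted p = 3.19e-06) passed as well, and without wild type CAC library 1, Per2 (1.00, adjusted p = 0.0380) and Dbp (1.37, adjusted p = 0.0204) did, Dbp being at −0.18 (adjusted p = 0.816) with all libraries. The sex of the source moved with this comparison too, with 5 of 5 sex markers called, so sex and model cannot be told apart in wild type.

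In the libraries labelled RNF138-/-, 6 members were higher in organoids and 1 lower, with 25.7% and 34.2% of genes called. Nr1d1 (3.06, SE 0.36) and Per1 (2.42, SE 0.32) had the largest log2 fold changes, followed by Dbp (2.24, SE 0.63), Arntl (2.05, SE 0.43), Per2 (1.88, SE 0.41) and Cry1 (1.59, SE 0.42), with adjusted p between 3.64e-06 and 0.00626 by edgeR. Clock was lower, at −0.80 (SE 0.20, edgeR, adjusted p = 0.00243). Per3 (−0.34, SE 0.55), Tef (0.93, SE 0.48) and Nr1d2 (0.51, SE 0.47) had adjusted p between 0.107 and 0.614 (edgeR). The members' median was 1.74, beside −0.22 over all genes tested. All 7 calls held without each of these libraries. Thra was also higher in organoids, by 1.17 in wild type and 1.66 in the libraries labelled RNF138-/-, and fibroblast markers were higher (5 of 7 and 6 of 7 called), while endothelial (5 of 6 and 6 of 6) and myeloid markers (6 of 8 and 8 of 8) were lower. Smooth muscle markers went opposite ways, 7 of 8 called lower in wild type organoids and 6 of 8 higher in those labelled RNF138-/-, and differentiated colonocyte markers were lower in 7 of 7 in wild type, and 3 of 7 lower and 1 higher in the other group. These comparisons share the CAC libraries with those between the tissues.

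**Figure D3:**
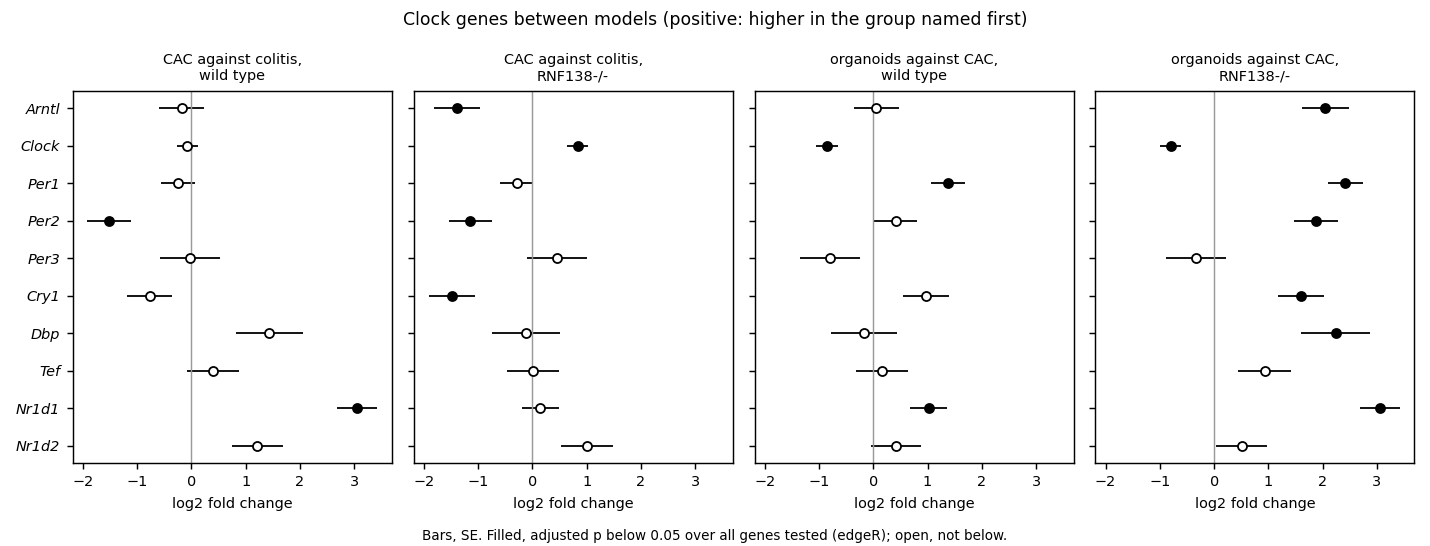
Log2 fold change of each clock gene between models, with its SE as a bar, in 4 panels for CAC against colitis and organoids against CAC in each genotype. Filled points passed an adjusted p of 0.05 (edgeR), and the longest distances from 0 are those of Nr1d1, at 3.05 in wild type CAC against colitis and 3.06 in RNF138-/- organoids against CAC.

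Within groups of colon tissue, 4 of the 9 other members were negatively correlated with Arntl by Pearson's r and 1 of them also by rank. Correlations of Arntl with genes outside the members were not computed, so this count has no share over all genes beside it. The libraries also differ in depth and tissue makeup, and the part of these in the correlations was not tested. Log2 CPM were centred on the group mean in the 12 colon libraries and Arntl was correlated with each of the 9 other members, with an exact permutation test within groups (1296 arrangements, two-sided, smallest p 0.000772) and adjustment over the 9 correlations. Pearson's r was −0.878 for Tef (permutation p = 0.0054, adjusted 0.0162), −0.874 for Per3 (permutation p = 0.0054, adjusted 0.0162), −0.866 for Per2 (permutation p = 0.00309, adjusted 0.0162) and −0.616 for Nr1d2 (permutation p = 0.0154, adjusted 0.0347). Spearman's rho was −0.776, −0.657, −0.797 and −0.650 in the same order, and by rank only Per2 had an adjusted p under 0.05 (0.0486). With a prior count of 0.5 and RLE factors, Nr1d2 had r = −0.58 (adjusted permutation p = 0.0556) and no longer passed.

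Dbp had r = −0.827 (permutation p = 0.0378, adjusted 0.0567) and rho = −0.643, and Per1 had r = −0.676 (permutation p = 0.0478, adjusted 0.0615) and rho = −0.608. Cry1 went with Arntl rather than against it, at r = 0.836 (permutation p = 0.0324, adjusted 0.0567) and rho = 0.650. Clock (r = −0.274, rho = −0.308) and Nr1d1 (r = 0.255, rho = 0.510) had permutation p of 0.352 and 0.255.

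The 2 libraries farthest from the median of Arntl were wild type CAC 3 and 1. The centring was not repeated when they were left out, so wild type CAC 2 kept its deviation from a mean that includes them. Without these 2 libraries r was −0.867 for Tef, −0.787 for Per3, −0.721 for Per2 and −0.728 for Nr1d2. Those relations kept their sign, and no test was run on these values. Cry1 was at 0.429 and Dbp at −0.632 without them, and the Cry1 relation rests on those libraries. Nr1d1 was at 0.659, Clock at −0.454 and Per1 at −0.445 without them, so the low r of Nr1d1 rests on them as well. Within a group there are 3 libraries, too few for a correlation of their own. The 6 organoid libraries gave no r with an adjusted p under 0.05 for any of the 9 members, the lowest raw p being that of Tef (r = 0.909, rho = 0.657, permutation p = 0.0278, adjusted 0.25).

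**Figure D4:**
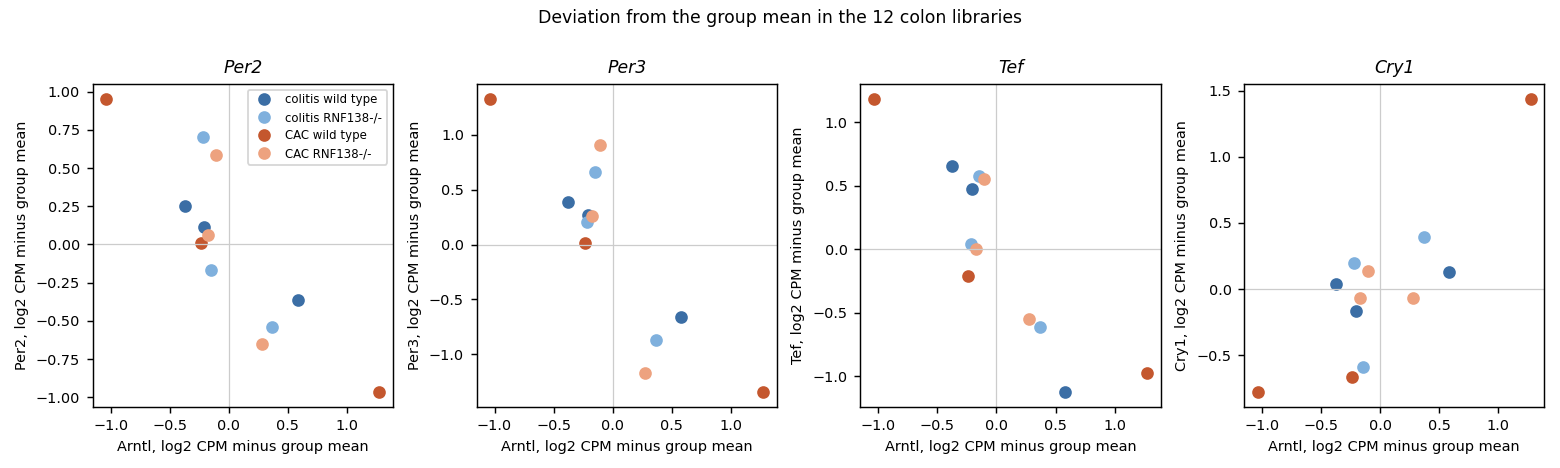
Deviation of Per2, Per3, Tef and Cry1 from the group mean (log2 CPM) against that of Arntl in the 12 colon libraries, colored by group. Per2, Per3 and Tef fall as Arntl rises (r = −0.866, −0.874 and −0.878), and Cry1 rises mainly through the 2 outer wild type CAC libraries.

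The genes most like Dbp included other members. Over the same 12 libraries, with 12358 genes at a mean of at least 5 CPM ranked by r with Dbp, Tef was the first (r = 0.919) and Per3 the fourth (r = 0.889), with Edc3 (0.896), Ighv1-12 (0.893) and Fhit (0.872) making up the first 5. Per2 ranked 13 and Per1 53, and Nr1d2 ranked 247. At the other end stood Espl1 (−0.917), Mroh2a (−0.91), 0610040F04Rik (−0.898), Cit (−0.888) and Edem1 (−0.885), and Arntl ranked 12349. Clock (4973), Nr1d1 (7569) and Cry1 (11845) were far from Dbp. The points share library depth and tissue makeup, so the ranks are a description.

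The ratio of a gene that is high when Arntl is low to Arntl itself moves with the phase of a cell's clock, and was taken within each library as a description. The log2 ratio of Dbp to Arntl in wild type CAC tissue was 1.55, −1.84 and −3.81 in libraries 1, 2 and 3, a 40.9-fold range between replicates. It ranged from −4.08 to −1.54 in wild type colitis, from −3.32 to −1.89 in colitis labelled RNF138-/- and from −2.30 to −0.40 in CAC labelled RNF138-/-, so each tissue group overlapped with the others. In organoids it was −1.53, −0.78 and −1.50 in wild type and −0.92, −1.08 and −0.99 in the other group, a range of 1.68-fold and 1.12-fold. Replicates of tissue therefore lay further apart in this ratio than replicates of organoids did.

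The ratio of Per2 to Arntl behaved alike in wild type CAC tissue, at 1.95, 0.20 and −2.29, and ran from −0.12 to 1.86 over the other 9 tissue libraries. In organoids it was 0.22 ± 0.16 (SD, n = 3) in wild type and 0.94 ± 0.03 in the other group. The ratio of Nr1d1 to Arntl was −2.86 ± 0.34 in wild type colitis, −1.22 ± 0.70 in colitis labelled RNF138-/-, 0.73 ± 1.27 and 0.35 ± 0.31 in the CAC groups and 1.37 ± 0.21 and 1.41 ± 0.32 in the organoids, in the order of wild type and RNF138-/-. All 6 colitis values were below 0 and all 6 organoid values above it, and wild type CAC tissue, from −0.61 to 1.91, spanned the values of the CAC group labelled RNF138-/- and of both organoid groups. With no time of day given and 1 sampling per library, a shift in phase and a change in level cannot be told apart for any of these ratios.

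**Figure D5:**
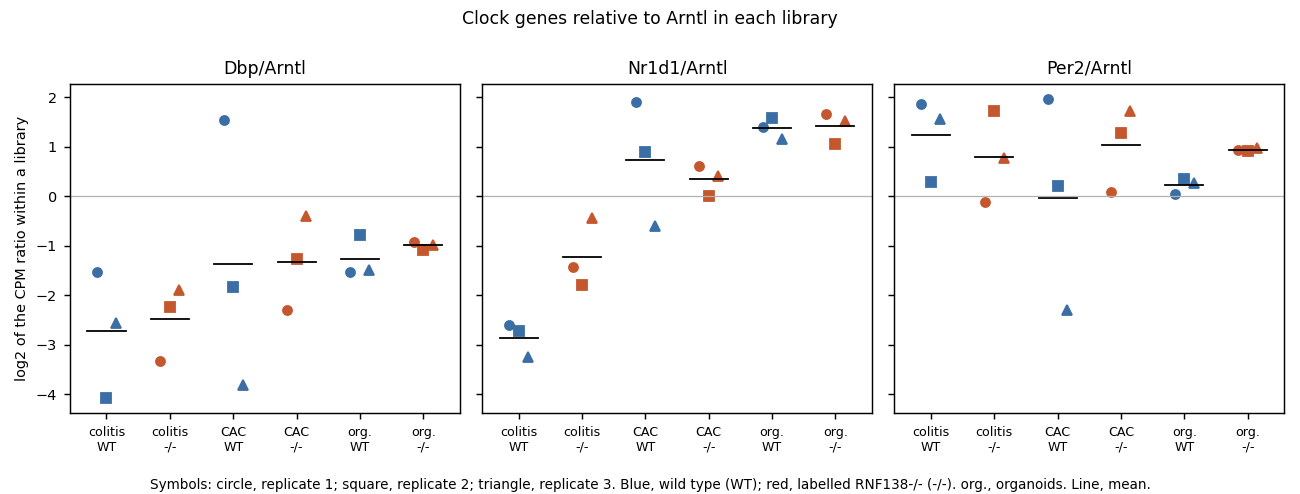
Log2 of the ratio of Dbp, Nr1d1 and Per2 to Arntl (CPM) in each of the 18 libraries, with the mean of each group as a line. The Dbp ratio runs from −3.81 to 1.55 among the 3 wild type CAC libraries, while the Nr1d1 ratio is negative in every colitis library and positive in every organoid library.

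Other genes of the clock were read from 3 lists, the remaining loop genes (11), the kinases and ubiquitin ligases that set the life of PER and CRY proteins (8), and output genes (5). Their counts stand beside the share of all genes called in the same comparison, and no list was tested against other genes. In colitis (0.018% of all genes called higher and 0.0722% lower) none of the 10, 8 and 5 tested genes was called between genotypes by edgeR, with 1 loop gene and 3 kinases or ligases at an unadjusted p under 0.05. In CAC (1.05% higher and 5.33% lower) the loop genes (10 tested) and kinases and ligases (8) had no call, with 3 and 3 at an unadjusted p under 0.05, and the only call was Usp2, a deubiquitinase under clock control, at −2.09 (SE 0.29, edgeR, adjusted p = 0.0272) in libraries labelled RNF138-/-, where it had 3.04 ± 0.882 CPM against 12.6 ± 1.92. In organoids (17.9% higher and 17.7% lower) 3 of 11 loop genes were higher and 2 lower. The higher ones were Hlf, the third PAR bZIP factor (1.86, SE 0.44, edgeR, adjusted p = 0.0142), Rora, which activates Arntl at ROREs (1.15, SE 0.22, edgeR, adjusted p = 0.00649), and the E-box repressor Bhlhe41 (0.72, SE 0.22, edgeR, adjusted p = 0.0370). Ciart, a repressor of the loop, was among the lower ones (−0.84, SE 0.28, edgeR, adjusted p = 0.0456). Of the kinases and ligases, Csnk1e (−0.69) and Fbxl21 (−1.24) were lower and none was higher, and of the outputs Usp2 (1.08) and Tspan4 (1.11) were higher and none was lower.

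The same lists were then read between models. In wild type CAC against colitis, where 12.3% of all genes were called higher and 7.55% lower, 3 of 11 loop genes were higher and none lower, with Ciart and Arntl2 at the upper end (1.85), 0 of 8 kinases and ligases were called (Btrc −0.33 to Fbxl21 1.65) with 2 at an unadjusted p under 0.05, and 2 of 5 outputs were lower, Wee1 (−1.18) and Usp2 (−0.89), with Nampt at the upper end (0.21). In the libraries labelled RNF138-/- (27.9% higher and 26.7% lower over all genes) 2 loop genes were higher and 5 lower, from Hlf (−3.32) to Arntl2 (3.51), a paralog of Arntl. Of the kinases and ligases 5 were higher and 1 lower, with Csnk1e at the upper end (1.66), and 2 outputs were lower, with Usp2 at −2.66 and Tspan4 at 0.13 as the ends.

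Against CAC tissue, with a background of 27% higher and 33.7% lower, wild type organoids had 6 of 11 loop genes higher and none lower, from Hlf (−1.07) to Nfil3 (4.18), the factor that opposes DBP and TEF at D-boxes. Of the kinases and ligases 5 of 8 were higher, with Fbxl21 at the upper end (2.72), and of the outputs 3 were higher and 2 lower, from Tsc22d3 (−0.75) to Tspan4 (3.53). In the libraries labelled RNF138-/- (25.7% higher and 34.2% lower over all genes) 7 loop genes were higher and 1 lower, from Arntl2 (−2.15) to Rora (4.00). Of the kinases and ligases 3 were higher, from Btrc (0.09) to Fbxw11 (0.89), and of the outputs 3 were higher and none lower, from Nampt (−0.02) to Usp2 (4.92).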

How the data were processed

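RNA-seq counts of 18 libraries were used. The authors deposited whole-number read counts per gene without normalization, and their own comparisons as log2 ratios with p-values, which were not used. The build was mm10. Cufflinks with Gencode v.M8 is named in the paper, and the submitters' processing notes name STAR 2.6.1d, HTSeq 0.11.2 and DESeq2. Whether strand was counted is not given in the sources used here. Libraries were made with a TruSeq RNA kit.

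Counts were analysed with edgeR 4.0.16 (R 4.3.3): TMM, filterByExpr, glmQLFit, glmQLFTest and Benjamini-Hochberg adjustment over all genes tested, per model for genotypes and over all 18 libraries for the rest. A gene was called at an adjusted p under 0.05, and DESeq2 1.42.0 was an alternative. CPM used TMM over all 18 libraries, and log2 CPM a prior count of 2. The fits were tested on simulated data. Exact permutation tests are two-sided. Coordinates are those of GENCODE M21 (36700 genes matched, 99.84%), promoters those of RefSeq. All 10 members were reported in every comparison, singly or by their range, and genes of 3 clock lists where called between genotypes or at an end of a list between models, apart from those left out below. The overlapping neighbours were added after values were seen. The members and lists were chosen with earlier results of these data known. Results for some single genes of the clock lists are not reported here.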

Additional observations from a re-analysis of the deposited data

Results flagged for a closer look

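The genotype differences of 3 genes differed between models by a test of that difference itself, in 4 cases. The genotype difference of Nr1d1 was lower in CAC than in colitis, the difference being −2.90 on the log2 scale (edgeR, adjusted p = 0.00249), with 4.47, 8.03 and 3.22 CPM in wild type colitis, 15.5, 8.04 and 21.5 in colitis labelled RNF138-/-, 47.9, 41.1 and 41.8 in wild type CAC and 23.3, 11.1 and 15.5 in CAC labelled RNF138-/-. That of Clock was higher in CAC than in colitis by 0.91 (edgeR, adjusted p = 0.0398), and 14.1% of all genes were called in the same test. Between organoids and CAC, the genotype difference of Arntl was higher in organoids by 1.99 (edgeR, adjusted p = 0.0243) and that of Nr1d1 by 2.04 (edgeR, adjusted p = 0.00710), with 23.3% of all genes called. A count of 2 of 10 members in each test is near the shares of 14.1% and 23.3%. The Clock call was lost under RLE normalization (edgeR, adjusted p = 0.0523) and in several fits without a single library. The Arntl call was also lost in several such fits, with a value of 1.10 without wild type CAC library 3 (edgeR, adjusted p = 0.0699). In wild type CAC tissue, library 3 held both the highest Arntl (63.6 CPM) and the highest sum of differentiated colonocyte markers (12600 CPM) among the 18 libraries.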

How the results depend on the processing

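No member called with the main settings changed direction under the settings run. Dbp in wild type organoids against CAC, −0.18 with all libraries, was 1.37 and passed (edgeR, adjusted p = 0.0204) without wild type CAC 1. Calls moved as follows, with the share of all genes called in either direction in parentheses. For counts at a fold change of at least 2 no such share was taken. In colitis (0.0902% with the main settings), 1 member was called with no filter on low counts (1.13%) and 1 by DESeq2 (2.62%). In CAC (6.38%), 2 were called by DESeq2 (22.7%) and 2 in one fit of all 18 libraries (23.5%), and between 0 and 1 without single libraries (0% to 8.87%). In organoids (35.5%), 2 were called in one fit of all 18 libraries (16.8%) and 2 at a fold change of at least 2, and between 3 and 7 without single libraries (17.2% to 44%). For wild type CAC against colitis, 1 was called in a fit of those 6 libraries (12%, against 19.8%), and between 1 and 5 without single libraries (10.7% to 21.9%). For RNF138-/- CAC against colitis, 5 were called with no filter (29.6%, against 54.7%), and between 3 and 5 without single libraries (46.4% to 55.1%). For wild type organoids against CAC the range was 2 to 5 (53.5% to 55.9%). For the genotype difference in CAC minus colitis, 1 was called under RLE normalization (13.8%, against 14.1%) and 1 at a fold change of at least 2, and 1 to 2 without single libraries (7.72% to 17.2%). For organoids minus CAC, 4 were called with no filter (10.6%, against 23.3%) and 4 by DESeq2 (27.9%), and 1 to 4 without single libraries (15.8% to 23.6%). Some calls were gained. With no filter, Nr1d2 passed in CAC against colitis in wild type (edgeR, adjusted p = 0.0258) and in RNF138-/- (0.0295), Cry1 in wild type organoids against CAC (0.0204), and Per2 (0.0268) and Dbp (0.0131) in organoids minus CAC. In the 6-library fit of RNF138-/- organoids against CAC, Tef (0.00847) and Nr1d2 (0.00793) passed. That fit called 9 members and 72.6% of all genes, against 59.9% with the main settings. Without wild type CAC 1, Arntl passed in CAC minus colitis (−1.64, adjusted p = 0.0362). The cause was not tested. The replicate number as a block left 5 members called in organoids (7 without it) and changed no other count of members. In colitis the share of all genes called was 0.547% with the block. Correlations of same-numbered libraries between genotypes were 0.0565 to 0.38 in colitis, 0.0324 to 0.179 in CAC and −0.114 to 0.0297 in organoids. The labels do not say whether same-numbered libraries were handled together, and these values cannot decide it. Members not called with the main settings whose log2 value changed sign were these. Under RLE, DESeq2 and the 6-library fit, Tef in RNF138-/- CAC against colitis was −0.0452, −0.0452 and −0.0369. With no filter, Dbp and Tef in colitis were −0.0138 and −0.00772. With the block, Per3 was 0.034 in wild type CAC against colitis (0.00144 in the 6-library fit) and 0.0962 between genotypes in CAC, and Dbp was 0.0345 in wild type organoids against CAC. By DESeq2, Arntl there was −0.00226. Without single libraries the values spanned 0 as follows. In colitis between genotypes, Arntl ran from −0.37 to 0.17, Cry1 from −0.29 to 0.14, Dbp from −0.30 to 0.51, Tef from −0.37 to 0.31 and Nr1d2 from −0.62 to 0.68. In CAC between genotypes, Per2 ran from −0.49 to 0.42, Per3 from −0.58 to 0.79, Cry1 from −1.24 to 0.26, Tef from −0.74 to 0.41 and Nr1d2 from −0.17 to 0.36. In wild type CAC against colitis, Arntl ran from −1.07 to 0.19, Clock from −0.23 to 0.13, Per3 from −0.94 to 0.41, Dbp from −0.16 to 1.91 and Tef from −0.47 to 0.76. In RNF138-/- CAC against colitis, Per3 ran from −0.0638 to 0.84, Dbp from −0.63 to 0.16, Tef from −0.31 to 0.28 and Nr1d1 from −0.24 to 0.44. In wild type organoids against CAC, Arntl ran from −0.35 to 0.95, Per3 from −1.23 to 0.0813, Dbp from −0.61 to 1.37 and Tef from −0.20 to 0.98, and in RNF138-/- Per3 ran from −0.74 to 0.16. For CAC minus colitis, Per1 ran from −0.33 to 0.27, Per3 from −0.0443 to 1.31, Cry1 from −1.11 to 0.38, Tef from −0.75 to 0.40 and Nr1d2 from −0.69 to 0.64. For organoids minus CAC, Clock ran from −0.0600 to 0.21, Per3 from −0.40 to 0.98, Cry1 from −0.47 to 1.00, Tef from −0.0355 to 1.13 and Nr1d2 from −0.24 to 0.30. The lowest counts of a member in a library were 48 (Dbp) and 52 (Nr1d1), and counts this low limit precision.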
